A study of Mus musculus with 18 samples.

Results

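Gene expression in L3–L5 dorsal root ganglia (DRG) was compared between mice with tibial fracture that received PDX and mice with sham surgery, to describe what differed from sham in lumbar DRG when a fracture was treated with PDX. The members of the comparison were the 6 libraries of fracture plus PDX mice and the 6 libraries of sham mice, 12 of the 18 libraries of the series, and the 20574 of 36737 genes that passed a filter on low counts. All mice were CD1 mice, an outbred strain with no engineered allele, and each group held 3 males and 3 females. The fracture plus PDX group had a tibial fracture and PDX treatment and the third group, named fracture, had the fracture and vehicle, and both were sampled on day 3 after surgery. The dose and route of PDX for these mice, the day and the injection of the sham mice, and the side of the ganglia are not given in the sources used here, which describe the animals of the study in general as adults. Every library was bulk RNA from whole ganglia of 1 mouse, so a lower level of a transcript in fewer cells of a type and a lower level per cell cannot be told apart.

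DRG hold the cell bodies of the sensory neurons that innervate skin, muscle and bone, together with satellite glia, Schwann cells, macrophages, endothelium and fibroblasts. When the axon of a sensory neuron is damaged in the periphery, the neuron switches on a transcription programme led by Atf3, which includes growth-associated proteins and neuropeptides that intact neurons make little of. PDX (protectin DX) is a lipid made from the fatty acid DHA and belongs to the specialized proresolving mediators. It is a stereoisomer of protectin D1, and the G protein–coupled receptor GPR37 is the receptor considered in the study.

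The 12 libraries held 63235040 to 80335243 counted reads each, with a median of 77103962 in sham and 73802058 in fracture plus PDX mice. All 11 pan-neuronal markers, 9 satellite glia markers and 11 myelinating Schwann cell markers were detected in each group, as the labelled tissue requires, and the sex markers of 18 of 18 libraries matched their labels. The labels name no batch. Among the marker lists, only placenta had summed levels that did not overlap between sham and fracture plus PDX libraries. They did overlap between sham and fracture libraries. The 12 placenta genes on the list, which encode placental prolactins, pregnancy-specific glycoproteins and trophoblast proteins that ganglia are not known to make, were over 3 counts in every group, and none was at 0. Their summed level was 209 to 680 CPM in sham (median 433), 31.0 to 166 CPM in fracture plus PDX (median 97.4) and 33.0 to 323 CPM in fracture mice (median 113). CPM are counts scaled to a common library size, after TMM. Male libraries held these transcripts too, with 330 to 474 CPM in the 3 sham males. In a model with the level of these genes as a covariate, which was added after seeing the data, 0 genes were called in either direction, and the correlation with the placenta list is given below for some of the genes described.

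In the fracture plus PDX libraries, 447 genes (2.17% of those tested) were higher and 478 genes (2.32%) were lower than in sham by edgeR's quasi-likelihood test with sex as a covariate (adjusted p-value under 0.05). The higher genes mostly differed by little. Their median log2 fold change was 0.19, 318 of the 447 differed by less than 0.25 on the log2 scale, 48 by more than 1.5-fold and 31 by more than 2-fold. They were well expressed, with a median of 107 CPM, and 431 were protein-coding. The lower genes differed by more and were expressed at lower levels, with a median log2 fold change of -0.63 and a median of 9.76 CPM, and 185 of the 478 differed by more than 2-fold. The median over all genes tested was -0.0013. The 6 fracture plus PDX libraries were above all 6 sham libraries for 227 of the 447 higher genes and below them for 252 of the 478 lower genes, while such separation was seen for 1.35% and 1.51% of all genes tested. When each library was left out in turn, 193 of the higher and 226 of the lower genes were called every time. The counts fell by more than 1.5 times when sham male 2, sham male 3, sham female 2, PDX male 3 or PDX female 1 was left out (PDX here stands for the fracture plus PDX group, and numbers are those of the labels) (to between 217 and 257 higher and between 281 and 303 lower genes), and without PDX male 2 the higher genes fell to 293.

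**Figure D1:**
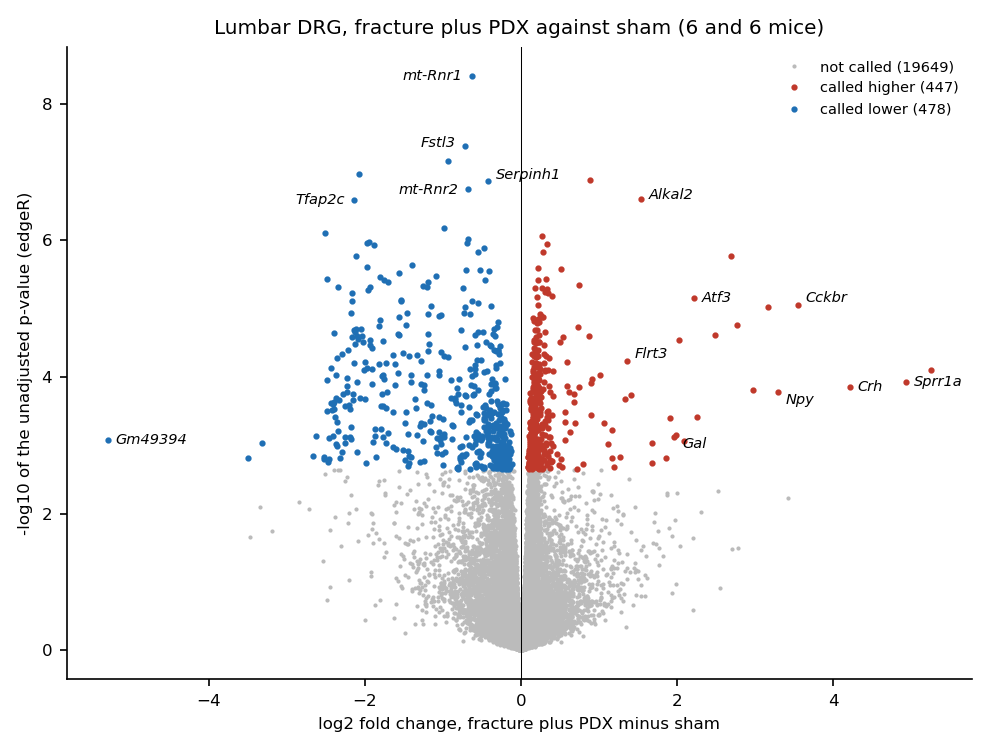
Each point is 1 of the 20574 genes tested, with the log2 fold change of fracture plus PDX minus sham on the x axis and the unadjusted p-value on a -log10 scale on the y axis. Colored points are the 447 genes called higher and the 478 genes called lower, and the named genes are described in the text. Most higher genes lie within a narrow range near 0 and the lower genes extend further.

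Genes of the response to axon injury were among the higher genes with the largest fold changes. Atf3 (ENSMUSG00000026628, chromosome 1 of GRCm38, 191170296 to 191218039), the transcription factor that marks injured sensory neurons, had 11.3 to 14.5 CPM in the 6 sham libraries (median 12.9) and 25.6 to 107 CPM in the 6 fracture plus PDX libraries (median 60.7). Every fracture plus PDX library lay above every sham library, and the spread was wider with fracture and PDX than in sham. The difference was 4.63-fold (log2 fold change 2.21 ± 0.26 (SE), adjusted p = 0.0026, exact permutation p = 0.00216, the smallest that 6 against 6 libraries can give). Of 15 injury-related transcription factors tested, 5 were higher and 0 lower (median log2 fold change 0.048). Sox11, a factor of developing and regenerating neurons, rose from 9.29 to 10.6 CPM in sham to 12 to 25.2 CPM (log2 fold change 0.74 ± 0.138, adjusted p = 0.0107). The other 3 rose by little, with log2 fold changes of 0.22 for Smad1, 0.21 for Klf7 and 0.14 for Stat3, and Stat3 kept its call only when sham female 1 or 3, PDX male 1 or PDX female 2 or 3 was the library left out (adjusted p otherwise 0.055 to 0.0853). Jun, the partner of ATF3 in AP-1 dimers, was not called (log2 fold change 0.15, adjusted p = 0.2). With the vehicle-treated fracture mice in place of the fracture plus PDX mice, against the same 6 sham libraries, Atf3 had 20.3 to 72.3 CPM (median 39.1) and a log2 fold change of 1.65 ± 0.254 (adjusted p = 0.0141), and Sox11 of 0.39 (adjusted p = 0.0425).

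Genes of axon injury and growth formed the largest part of this response, with 9 of 17 tested members higher and 0 lower, a median log2 fold change of 0.35 and between 7 and 10 members higher when 1 library was left out. Sprr1a (ENSMUSG00000050359, chromosome 3 of GRCm38, 92483952 to 92485895), a small proline-rich protein that promotes neurite outgrowth, was barely present in sham, with 0.41 to 1.78 CPM (median 0.868). It reached 6.13 to 81.4 CPM with fracture plus PDX (median 32.7), a 30.5-fold difference (log2 fold change 4.93 ± 0.783, adjusted p = 0.01). The lowest fracture plus PDX libraries were males 1 and 3, at 6.13 and 6.17 CPM, and the highest was female 3, so the group varied more than 10-fold within itself while staying above sham. Gadd45a, a stress-induced regulator of DNA repair and demethylation, rose from 17.0 to 27.2 CPM to 28.1 to 58.2 CPM (log2 fold change 1.01 ± 0.168, adjusted p = 0.00871). Flrt3, an adhesion protein of growing axons, rose from 8.82 to 15.2 CPM to 20.4 to 43.2 CPM (1.35 ± 0.211, adjusted p = 0.00683). Ecel1, a membrane metallopeptidase known as damage-induced neuronal endopeptidase, rose from 0.385 to 1.37 CPM to 2.03 to 14.2 CPM (2.97 ± 0.524, adjusted p = 0.0115). The groups did not overlap for any of these 4 genes, nor for the tubulin Tubb6 (log2 fold change 0.60, adjusted p = 0.0107). Csf1, the cytokine through which injured neurons act on macrophages and microglia, was not called (31.5 to 38.5 CPM in sham, 34.0 to 54.2 CPM with fracture plus PDX, adjusted p = 0.202).

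The injury-induced neuropeptides had the highest median of the lists, with 5 of 6 tested members higher, 0 lower and a median log2 fold change of 2.02. Between 3 and 5 members were higher when 1 library was left out. Npy (neuropeptide Y), which large sensory neurons make after nerve injury, had 0.261 to 0.884 CPM in sham (median 0.341) and 1.04 to 7.41 CPM with fracture plus PDX (median 5.56), with no overlap (log2 fold change 3.29 ± 0.585, adjusted p = 0.0118). Adcyap1, which encodes PACAP, rose without overlap, from 50.7 to 88.5 CPM in sham to 91.8 to 151 CPM (0.92 ± 0.151, adjusted p = 0.00941). Gal (galanin) had 8.13 to 18.2 CPM in sham (median 10.7) and 17.9 to 95.9 CPM with fracture plus PDX (median 47.2). In 5 of 6 fracture plus PDX libraries it lay above every sham library, and male 1, at 17.9 CPM, fell just below sham male 1 (log2 fold change 1.96 ± 0.404, adjusted p = 0.0274). Nts (neurotensin) had 1.45 to 7.70 CPM in sham (median 5.31) and 9.84 to 34.9 CPM with fracture plus PDX (median 18.6), without overlap (2.09 ± 0.442, adjusted p = 0.029). Crh, which encodes corticotropin-releasing hormone, was near the limit of detection in sham, with 0 to 12 counts per library, and reached 0.128 to 4.0 CPM with fracture plus PDX (4.21 ± 0.76, adjusted p = 0.0107, and 0.0556 with limma on log2(FPKM + 1)). Calls of 2 of these peptides depended on single libraries. Gal was not called without sham male 2 or 3, any sham female, PDX male 2 or PDX female 1 (adjusted p between 0.0576 and 0.0787), and Nts not without sham male 2, sham female 2 or 3, or PDX male 2 or PDX female 2 (between 0.0501 and 0.0796). In vehicle-treated fracture mice, the log2 fold changes against the same sham libraries were 2.51 for Npy, 0.78 for Adcyap1, 1.41 for Gal and 1.44 for Nts, the last 2 not called (adjusted p = 0.215 and 0.0741).

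**Figure D2:**
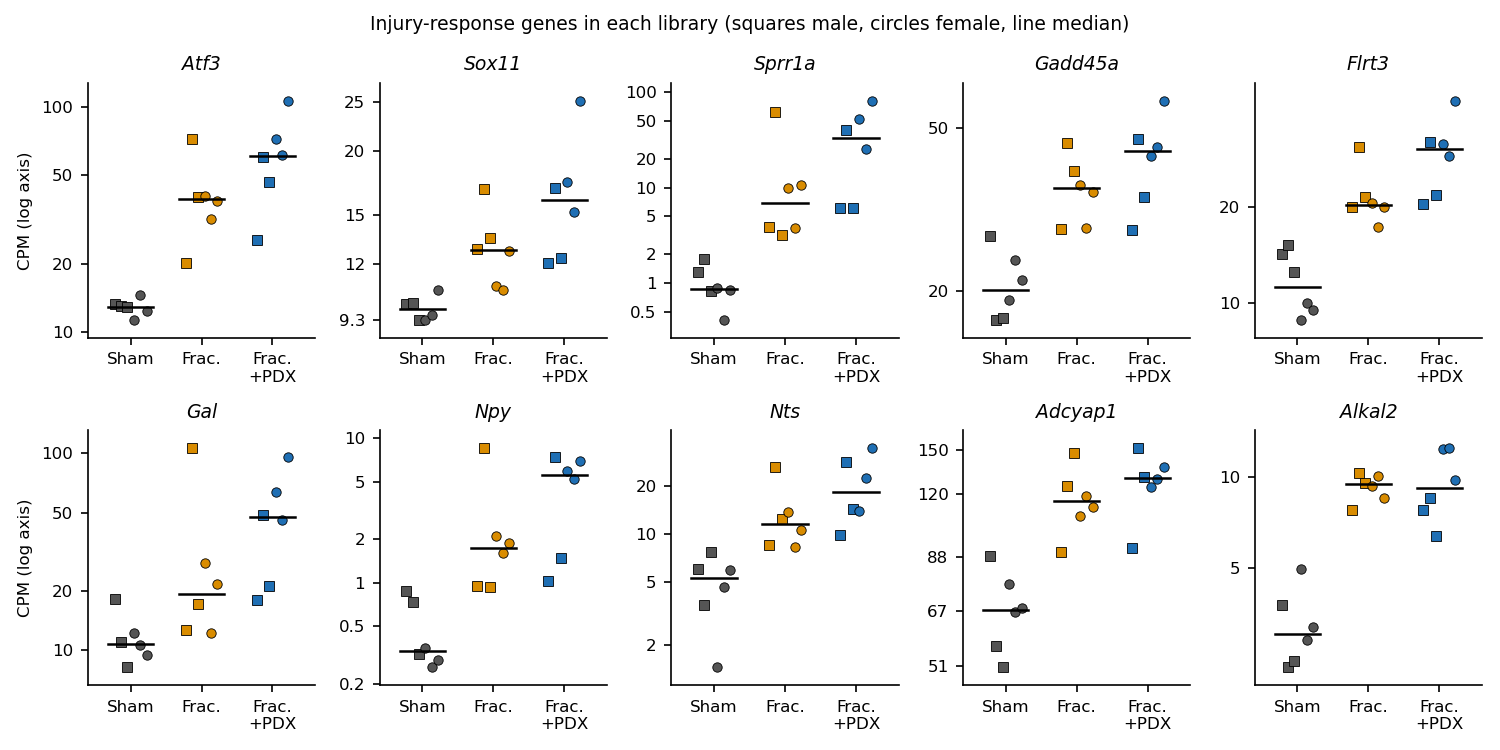
CPM on a log axis in each library of the sham, fracture and fracture plus PDX groups for 10 injury-response genes, with squares for males, circles for females and a line at the median. Atf3 lies between 11.3 and 14.5 CPM in sham and between 25.6 and 107 CPM in fracture plus PDX, and the fracture libraries lie between 20.3 and 72.3 CPM.

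The bases before the start of Sprr1a and Nts are shown because both genes were among those raised and both windows hold the AP-1 motif TGACTCA, searched on both strands, which is the site bound by dimers of the JUN, FOS and ATF families. The windows are the 250 bases before the RefSeq start on GRCm38.p6, on the minus strand of chr3:92485882-92486131 for Sprr1a and of chr10:102490419-102490668 for Nts, with the motif in capitals as it reads on the strand of the gene. In Sprr1a it begins 146 and 116 bases before the start, and in Nts 207 bases before.
Sprr1a: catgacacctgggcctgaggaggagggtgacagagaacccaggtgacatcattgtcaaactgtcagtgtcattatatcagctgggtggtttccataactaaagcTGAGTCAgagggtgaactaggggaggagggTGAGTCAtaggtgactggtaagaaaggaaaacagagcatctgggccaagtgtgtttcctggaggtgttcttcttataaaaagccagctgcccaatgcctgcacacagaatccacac
Nts: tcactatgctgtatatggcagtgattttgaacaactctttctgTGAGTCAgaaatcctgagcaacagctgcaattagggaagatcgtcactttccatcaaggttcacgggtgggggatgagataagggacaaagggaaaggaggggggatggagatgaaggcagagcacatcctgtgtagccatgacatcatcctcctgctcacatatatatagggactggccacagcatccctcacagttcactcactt
As a description over all windows of this length, TGACTCA was present in 4.61% of 434 windows of the higher genes, 7.01% of 471 windows of the lower genes and 3.68% of 17574 windows of all genes tested, and in 4.46% of the 32851 windows of the whole RefSeq table. The cAMP response element TGACGTCA was present in 2.07%, 1.7% and 2.25% of the higher, lower and all tested windows, the E-box CACGTG in 5.3%, 6.79% and 7.52%, and the core of the interferon-stimulated response element in 1.84%, 1.91% and 2.67%. Windows were matched by symbol for 329 of the 447 higher and 351 of the 478 lower genes.

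The 5 largest fold changes among higher genes with a mean of at least 1 CPM were those of Sprr1a, Cckbr, Npy, Kcnk16 and Ecel1. Cckbr, the receptor for cholecystokinin and gastrin, rose from 0.0497 to 0.337 CPM in sham to 0.591 to 4.88 CPM (log2 fold change 3.55 ± 0.488, adjusted p = 0.00286). Kcnk16, a potassium leak channel gene, rose from 0.0428 to 0.351 CPM to 0.672 to 4.94 CPM (3.17 ± 0.453, adjusted p = 0.00293). The smallest p-values belonged to the unnamed transcript Gm41442, at 6.96 to 9.73 CPM in sham and 12.2 to 17.5 CPM with fracture plus PDX (0.88 ± 0.0888, adjusted p = 0.000459), and to Alkal2. Alkal2, which encodes a ligand of the receptor tyrosine kinase ALK, rose from 2.33 to 4.94 CPM in sham (median 3.02) to 6.37 to 12.5 CPM (median 9.15). It did so by 1.54 ± 0.163 on the log2 scale (adjusted p = 0.000586) and was called without each library in turn. The vehicle-treated fracture mice had 7.74 to 10.3 CPM of Alkal2 and a log2 fold change of 1.51 against the same sham libraries. Gm32432, which lies within the neuronal adhesion gene Dscam on the opposite strand, rose by 2.69 (adjusted p = 0.00154). The libraries were strand-specific, but the setting used for counting is not given in the sources used here.

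Some pan-neuronal markers were higher by a small amount. Of 11 pan-neuronal markers, 4 were higher and 0 lower, and all 11 had a positive log2 fold change (median 0.14). Tubb3, neuronal beta-tubulin, had 2339 to 2583 CPM in sham and 2750 to 2929 CPM with fracture plus PDX (log2 fold change 0.21 ± 0.0316, adjusted p = 0.00382), without overlap. Stmn2, a microtubule regulator of axons, had 1216 to 1381 and 1407 to 1493 CPM (0.19, adjusted p = 0.0122), and Rbfox3, the nuclear neuron marker NeuN, 156 to 169 and 165 to 192 CPM (0.18, adjusted p = 0.0147). Uchl1 was the weakest of the 4 (0.14, adjusted p = 0.0437) and kept its call only when sham male 1, PDX male 2 or PDX female 3 was left out (adjusted p otherwise up to 0.107). The summed level of the 11 markers was 19540 to 21114 CPM in sham (median 20216) and 21016 to 23394 CPM with fracture plus PDX (median 21894), and its part in the small differences of single neuronal genes was not tested. Other genes with the smallest p-values also had log2 fold changes between 0.21 and 0.51, namely Ctnnd2, a catenin of neuronal junctions (57.7 to 61.9 CPM in sham, 69.3 to 75.7 CPM with fracture plus PDX, log2 fold change 0.27), Csdc2 (0.34), Rasl10b (0.29), Rab11fip5 (0.21), Mcam (0.21) and Nxpe4 (0.51). Nptx2, a secreted pentraxin of excitatory synapses, rose by 0.32 with an overlap of the groups (98.3 to 119 CPM in sham, 116 to 159 CPM with fracture plus PDX). Its correlation with the placenta list within groups over the 12 libraries was 0.74, and its exact permutation p was 0.0195.

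Genes that carry pain signals in nociceptors were mostly not called. Of 15 nociceptor receptors and channels, 1 was higher and 0 lower (median log2 fold change 0.12). The higher one was Ret, the signalling receptor for GDNF-family ligands, with 726 to 794 CPM in sham and 840 to 948 CPM with fracture plus PDX (0.20 ± 0.0286, adjusted p = 0.00251). Of 6 nociceptor neuropeptides, 0 were called (median -0.056). Calca, which encodes CGRP, had 790 to 902 CPM in sham and 713 to 897 CPM with fracture plus PDX (log2 fold change -0.08 ± 0.0512, adjusted p = 0.436), and Tac1, which encodes substance P, 148 to 238 and 151 to 206 CPM (-0.11 ± 0.124, adjusted p = 0.72). The heat and capsaicin receptor gene Trpv1 differed by 0.02 ± 0.105 (adjusted p = 0.965) and the sodium channel gene Scn10a by 0.05 ± 0.0462 (adjusted p = 0.615). Trpa1, the channel for irritants, had 41.7 to 53.5 CPM in sham (median 46.7) and 36.0 to 47.0 CPM with fracture plus PDX (median 40.9). The groups overlapped, and its log2 fold change of -0.19 ± 0.0668 missed the threshold (adjusted p = 0.15, exact permutation p = 0.0238 for this gene alone). Against the same sham libraries, the vehicle-treated fracture mice differed by 0.07 (adjusted p = 0.616). Of 15 voltage-gated calcium channel genes, Cacna1a (0.17, adjusted p = 0.0318) and Cacna1i (0.40, adjusted p = 0.0437) were higher. Cacna1a kept its call only when sham male 2, sham female 3, PDX male 1 or PDX female 2 or 3 was left out (adjusted p otherwise up to 0.0821), and Cacna1i only without sham female 3 or PDX female 1 (up to 0.103). None of 10 large-fibre neuron genes and 7 opioid system genes was called.

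Glial lists differed little. Satellite glia, which wrap the neuronal cell bodies, had 2 of 9 markers higher and 0 lower (median log2 fold change 0.19). These were Ednrb, the endothelin B receptor gene (97.5 to 151 CPM in sham, 151 to 182 CPM with fracture plus PDX, 0.36 ± 0.0807, adjusted p = 0.0274), and Kcnj10, the inward-rectifier potassium channel gene of glia (79.8 to 95.9 and 96.8 to 129 CPM, 0.27 ± 0.0698, adjusted p = 0.0493). Ednrb was not called without sham male 2, sham female 2, PDX male 1 or 2 or PDX female 1 or 2 (adjusted p up to 0.0615), and Kcnj10 kept its call only without PDX female 1 (otherwise up to 0.106). Myelinating Schwann cell markers had 0 of 11 called, with all 11 log2 fold changes below 0 (median -0.19) and a wide spread in sham, from 11260 to 25326 CPM summed. Of 10 repair Schwann cell genes, the adhesion gene Ncam1, which neurons express too, was higher (0.23 ± 0.0381, adjusted p = 0.00501).

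Among the lower genes, those of placenta formed the largest block. Of the 12 placenta genes, 10 were lower and 0 higher, with a median log2 fold change of -2.35, and between 8 and 11 were lower when 1 library was left out. Prl3b1, placental lactogen II, had 52.9 to 170 CPM in sham and 8.42 to 41.7 CPM with fracture plus PDX (-2.23 ± 0.371, adjusted p = 0.0118), and Tpbpa, a trophoblast marker, 75.5 to 232 and 14.0 to 58.8 CPM (-2.15 ± 0.362, adjusted p = 0.0122). Tpbpb, the relative of Tpbpa, and Psg19, a pregnancy-specific glycoprotein gene, fell by 2.37 and 2.10 on the log2 scale (adjusted p = 0.0133 and 0.00454), and for all 4 genes every fracture plus PDX library lay below every sham library. Tpbpb overlaps Gm49391 on the same strand, so reads may be divided between them. In the vehicle-treated fracture mice, Prl3b1 had 8.01 to 76.9 CPM (log2 fold change -1.76 against the same sham libraries, adjusted p = 0.092). Members of several gene families were lower, with 14 of 19 placental prolactins, 9 of 12 pregnancy-specific glycoproteins, 8 of 13 Ceacam genes, 7 of 8 Serpinb9 genes, 5 of 5 placental cathepsins, 4 of 4 Rhox homeobox genes, 3 of 3 embryonic globins, 5 of 12 imprinted genes (Cdkn1c, H19, Peg10, Phlda2 and Slc38a4) and 4 of 20 keratins (Krt7, Krt8, Krt18 and Krt19) lower and 0 members of each higher. Members of these families resemble each other in sequence, so reads can be divided between them. These families were counted after their values had been seen.

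The same transcripts varied together among the mice of a group. With group and sex differences removed, 110 of the 478 lower genes (23%) had a correlation over 0.7 with the mean of the placenta list across the 12 libraries, against 2 of the 447 higher genes (0.447%) and 1.6% of all genes tested. The libraries are shared by all these correlations, which are given as a description. Genes of the placenta list itself were not left out of these counts. The 110 genes had a median log2 fold change of -1.97. They included Tfap2c, a trophoblast transcription factor gene (2.92 to 7.47 CPM in sham, 0.646 to 1.94 CPM with fracture plus PDX, log2 fold change -2.14 ± 0.226, adjusted p = 0.000586, correlation 0.94), Nup62cl (-2.08, correlation 0.86), Gm6325 (-2.51, correlation 0.75) and Fblim1, a filamin-binding protein of cell junctions (6.82 to 8.65 and 3.40 to 4.62 CPM, -0.93 ± 0.0889, adjusted p = 0.000459, correlation 0.83). Serpinb9d (-2.48) had a correlation of 0.60. Lower genes with a correlation between -0.3 and 0.3 numbered 182 and had a median log2 fold change of -0.38, and higher genes in that range numbered 279, with a median of 0.19. When the mean of the placenta list was added to the model as a covariate, a choice made after seeing the data, 0 genes were called in either direction and 1121 had an unadjusted p-value under 0.05. The covariate and the group share much of their variation in these 12 libraries. The estimate for Atf3 was then 1.70, for Sprr1a 3.07, for Alkal2 1.51, for mt-Rnr1 -0.57 and for Serpinh1 -0.40, and of the genes called without the covariate 1 higher and 31 lower ones changed sign. The median of the placenta list, from which the covariate was made, was -0.1 with it and -2.35 without it.

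The calls of 3 other lower genes with large fold changes were less certain. Gm49394, which overlaps the imprinted growth factor gene Igf2 on the same strand, so that their reads cannot be told apart, had 0 to 12.7 CPM in sham and 0.0538 to 0.418 CPM with fracture plus PDX (log2 fold change -5.29 ± 1.11, adjusted p = 0.0284). The sham library at 0 was female 3. Gm5155 had 5.20 to 20.3 CPM in sham and 0.135 to 3.66 CPM with fracture plus PDX (-2.53, adjusted p = 0.0397, correlation with the placenta list 0.93). Nos2, the inducible nitric oxide synthase gene, had 0.787 to 2.55 and 0 to 0.928 CPM (-2.52, adjusted p = 0.0418, correlation 0.66). Gm49394 kept its call only when sham male 1 or 3, sham female 3 or PDX female 3 was left out (adjusted p otherwise up to 0.0719). Gm5155 kept it only without sham female 3 or PDX female 1 (up to 0.0908), and Nos2 only without sham male 1, PDX male 1 or PDX female 3 (up to 0.089).

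Mitochondrial ribosomal RNAs were among the lower genes, and mt-Rnr1 had the smallest p-value of the comparison. The libraries were poly(A)-selected, and how the selection affected these rRNAs was not tested. mt-Rnr1, the 12S rRNA gene (positions 70 to 1024 of the mitochondrial genome), had 248 to 298 CPM in sham (median 264) and 150 to 198 CPM with fracture plus PDX (median 169). The groups were far apart (log2 fold change -0.63 ± 0.0472, adjusted p = 8.01e-05, correlation with the placenta list 0.21). mt-Rnr2, the 16S rRNA gene (positions 1094 to 2675), had 346 to 462 and 235 to 263 CPM (-0.68 ± 0.0664, adjusted p = 0.000521). The vehicle-treated fracture libraries were also below sham, with 154 to 186 CPM of mt-Rnr1 and 233 to 300 CPM of mt-Rnr2. Of the 13 mitochondrially encoded mRNAs, 1 was lower, mt-Nd2 (-0.15, adjusted p = 0.0381), which kept its call only without sham female 3 or PDX female 3 (adjusted p otherwise up to 0.0859), and the median of the 13 was -0.093. The share of all counts on mitochondrial genes was 3.32% to 3.92% in sham and 3.22% to 3.44% with fracture plus PDX. None of 77 nuclear oxidative phosphorylation genes was called (median 0.053), and of 81 cytosolic ribosomal protein genes 3 were lower, Rps18, Rpl34 and Rpl29, which were counted at 3.79 to 19.2 CPM and have many near-identical copies in the genome.

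A minority of the collagen folding and matrix genes was lower. Serpinh1, which encodes the collagen chaperone HSP47, had 134 to 154 CPM in sham (median 140) and 96.2 to 117 CPM with fracture plus PDX (median 105), without overlap (log2 fold change -0.42 ± 0.0419, adjusted p = 0.000459). The correlation of this gene with the placenta list was 0.09. Of 15 genes of collagen folding and cross-linking, 4 were lower and 0 higher (median -0.19), namely Serpinh1, the prolyl hydroxylase genes P4ha1 (-0.38, adjusted p = 0.00292) and P4ha2 (-0.26, adjusted p = 0.035), and the lysyl hydroxylase gene Plod2 (-0.38, adjusted p = 0.019). P4ha2 kept its call only without sham male 1, sham female 1 or 3 or PDX male 1 (adjusted p otherwise up to 0.0831). Of 14 fibrillar matrix genes, fibronectin (Fn1) was lower, at 192 to 276 CPM in sham and 139 to 188 CPM with fracture plus PDX (-0.59 ± 0.0871, adjusted p = 0.00454, correlation with the placenta list 0.56), and Col1a1 was not called (-0.17, adjusted p = 0.339). Of 11 basement membrane genes, the laminin genes Lama5 (34.3 to 44.4 and 24.2 to 31.4 CPM, -0.52 ± 0.0677, adjusted p = 0.0019) and Lamc1 (-0.29, adjusted p = 0.049) were lower, all 11 had a negative log2 fold change, and Lamc1 kept its call only without sham male 1, sham female 1 or PDX female 3 (adjusted p otherwise up to 0.117). In the vehicle-treated fracture mice, the log2 fold changes against the same sham libraries were -0.45 for Serpinh1, -0.54 for Fn1 and -0.49 for Lama5. Of 10 bone and cartilage genes, 2 were lower and 0 higher, while 7 had a positive log2 fold change and the median was 0.18. The lower ones were the cartilage genes Acan (1.34 to 4.52 CPM in sham, 0.39 to 1.01 CPM with fracture plus PDX, -2.05 ± 0.319, adjusted p = 0.00431) and Col2a1 (-0.37, adjusted p = 0.0361). Col2a1 kept its call only without sham female 2 (adjusted p otherwise up to 0.081).

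Fstl3 and A2m were among the lower genes with the smallest p-values. Fstl3, a secreted inhibitor of activin, had 18 to 24.2 CPM in sham (median 20.7) and 12 to 13.3 CPM with fracture plus PDX (median 12.6). The difference was -0.72 ± 0.0653 on the log2 scale (adjusted p = 0.00043), and the fracture libraries, at 11.6 to 17.1 CPM, lay below sham too. A2m, alpha-2-macroglobulin, a protease inhibitor that binds cytokines, had 42.5 to 59.2 and 27.6 to 35.7 CPM (-0.68 ± 0.0795, adjusted p = 0.00134). Of the activin and TGF-beta genes, Ccn2, connective tissue growth factor, was lower too (-0.36, adjusted p = 0.0379) and kept its call only without sham female 1, PDX male 3 or PDX female 3 (adjusted p otherwise up to 0.0944). Eps8l2, an actin regulator, had 10 to 14.2 and 4.82 to 7.90 CPM (-0.99 ± 0.114, adjusted p = 0.00134). Serpina3n, a serine protease inhibitor induced in reactive tissue, was the single acute-phase gene that was higher (185 to 221 and 223 to 250 CPM, 0.18, adjusted p = 0.0173).

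Of 11 endothelial markers, 3 were lower and 0 higher. Their sum was 197 to 250 CPM in sham (median 230) and 166 to 202 CPM with fracture plus PDX (median 188). Cdh5, VE-cadherin of endothelial junctions, had 26.5 to 43.5 and 21.1 to 24.6 CPM (log2 fold change -0.74 ± 0.0989, adjusted p = 0.00216). Flt1, a VEGF receptor gene that trophoblast expresses too, had 29.6 to 51.3 and 23.9 to 27.3 CPM (-0.73 ± 0.104, adjusted p = 0.00339). Their correlations with the placenta list were 0.42 and 0.60. Esam was lower by less (-0.26, adjusted p = 0.0373) and kept its call only without sham female 1 or 3 or PDX female 2 (adjusted p otherwise up to 0.0948). The median over the 11 markers was -0.12, and in the vehicle-treated fracture mice Cdh5 and Flt1 differed from the same sham libraries by -0.73 and -0.71.

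**Figure D3:**
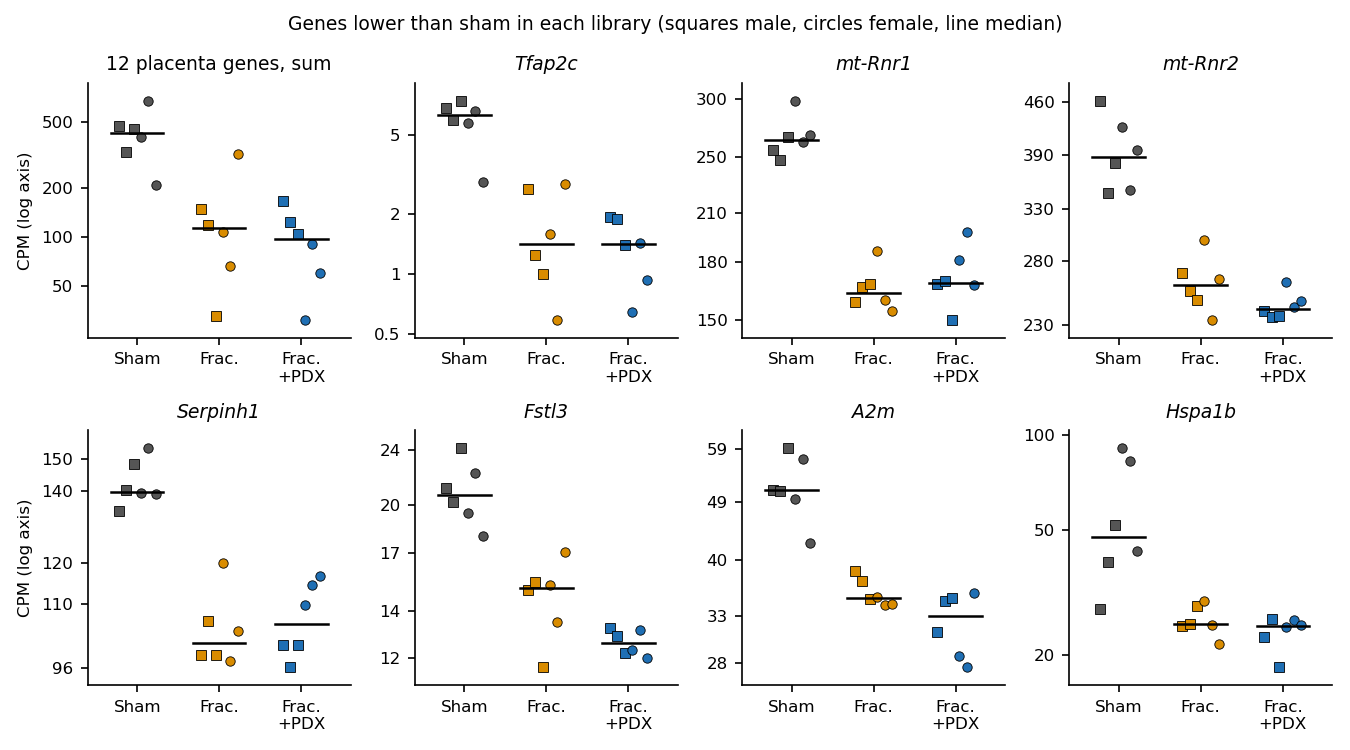
CPM on a log axis in each library of the 3 groups for the sum of the 12 placenta genes and 7 lower genes, with squares for males, circles for females and a line at the median. For mt-Rnr1 the sham libraries lie between 248 and 298 CPM and the fracture plus PDX libraries between 150 and 198 CPM, while the placenta sum spans 209 to 680 CPM in sham.

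Protein-folding genes were lower in part. Of 8 heat shock genes, 4 were lower and 0 higher (median log2 fold change -0.24), and between 1 and 5 were lower when 1 library was left out. Hspa1b, an inducible HSP70 gene, had 28.0 to 90.9 CPM in sham (median 47.2) and 18.3 to 26.1 CPM with fracture plus PDX (median 24.7), and its near-identical copy Hspa1a had 21.5 to 70.1 and 14.9 to 20.8 CPM. Their log2 fold changes were -1.17 ± 0.228 (adjusted p = 0.0202) and -1.08 ± 0.228 (adjusted p = 0.0276), reads may be divided between them, and the sham libraries varied more than 3-fold. The cochaperone genes Hsph1 (-0.30, adjusted p = 0.00574) and Dnajb1 (-0.38, adjusted p = 0.0274) were the other 2. Hspa1b was not called without sham male 3 (adjusted p = 0.058), PDX male 3 (0.051) or PDX female 1 (0.0578). Hspa1a kept its call only without sham male 1, sham female 1 or 3 or PDX male 3 (otherwise up to 0.0752), and Dnajb1 was not called without sham male 3, sham female 2, PDX male 2 or any PDX female (up to 0.0726). Of 15 ER stress genes, Creld2 (-0.38, adjusted p = 0.0116), Hsp90b1 (-0.19, adjusted p = 0.0147), Herpud1 (-0.28, adjusted p = 0.0175) and the chaperone gene Hspa5 (-0.15, adjusted p = 0.0448) were lower and 0 were higher. Herpud1 was not called without PDX female 1 (adjusted p = 0.0507), and Hspa5 kept its call only without sham male 1 or sham female 3 (otherwise up to 0.108). The window before Hspa1a is shown because heat shock genes are recognized by the heat shock element, here searched as GAANNTTC, which reads the same on both strands and is in capitals. It is the minus strand of chr17:34972157-34972406 on GRCm38.p6, with the element 104 bases before the RefSeq start.
Hspa1a: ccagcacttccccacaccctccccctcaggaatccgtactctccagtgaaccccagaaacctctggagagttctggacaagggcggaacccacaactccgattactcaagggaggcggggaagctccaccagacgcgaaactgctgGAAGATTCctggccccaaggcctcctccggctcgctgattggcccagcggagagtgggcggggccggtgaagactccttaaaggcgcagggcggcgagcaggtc
This motif was present in 5.3% of the windows of higher genes, 5.1% of those of lower genes and 5.13% of those of all genes tested.

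Genes that respond to handling and time of day showed few calls. Of 12 immediate early genes, 1 was lower, the nuclear receptor gene Nr4a3 (0.992 to 3.49 CPM in sham, 0.417 to 0.712 CPM with fracture plus PDX, log2 fold change -1.57, adjusted p = 0.00838, and 0.0686 with limma on log2(FPKM + 1), correlation with the placenta list 0.79), and all 12 had a negative log2 fold change (median -0.29). Of 12 glucocorticoid-responsive genes 0 were called (median -0.31, Fkbp5 -0.22 with adjusted p = 0.392). Of 15 clock genes, Nr1d1 was lower (-0.41, adjusted p = 0.0293) and was not called without sham female 1 or 2, PDX male 1 or 3 or PDX female 1 (adjusted p between 0.0566 and 0.0704).

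Most immune cell markers did not pass the test. Of 15 macrophage markers, 1 was lower and 0 higher (median log2 fold change -0.026, and -0.13 to 0.015 when 1 library was left out). That gene was Csf1r, the receptor for CSF1 and IL-34 on which macrophages depend, with 34.4 to 38.6 CPM in sham and 24.9 to 31.3 CPM with fracture plus PDX, without overlap (-0.34 ± 0.0538, adjusted p = 0.00431). The summed macrophage markers had 217 to 268 CPM in sham (median 243), 214 to 263 CPM with fracture plus PDX (median 225) and 169 to 219 CPM with fracture (median 186). Neutrophil markers summed to 101 to 429 CPM in sham (median 207), 96.5 to 541 CPM with fracture plus PDX (median 247) and 108 to 222 CPM with fracture (median 125), and 0 of 15 were called against sham (median log2 fold change 0.28, and -0.033 to 0.58 when 1 library was left out). S100a8 and S100a9, calcium-binding proteins of neutrophils, differed from sham by 0.23 ± 0.505 and 0.14 ± 0.492 (adjusted p = 0.872 and 0.931). The study names 11 genes for PDX, chosen on these libraries from fracture plus PDX against vehicle-treated fracture, by tests and thresholds of its own. It names Trpa1 as lower and the others as higher. In that contrast their median log2 fold change was 0.92, and edgeR called 0 of the 11. Against sham, a different contrast, their median was 0.20 and edgeR called 0. Of the 11, 2 had an unadjusted p-value under 0.05 against sham and DESeq2 called 1. The largest difference was that of Ppbp, a chemokine of platelets, with 0.671 to 3.81 CPM in sham and 1.44 to 14.3 CPM with fracture plus PDX (1.90 ± 0.657, adjusted p = 0.156 in edgeR and 0.0303 in DESeq2), and the groups overlapped. Itgam differed by 0.02 ± 0.294, C3 by 0.06 ± 0.207 and Fpr2 by 0.21 ± 0.36, with standard errors larger than the differences. Itgam overlaps Gm49368 on the same strand, so reads may be divided between them. Gpr37, the receptor considered for PDX, had 14.7 to 18.6 CPM in sham and 16.2 to 19.5 CPM with fracture plus PDX (0.14 ± 0.0679, adjusted p = 0.303).

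Other immune and blood lists held few calls. Of 7 T and NK cell genes, Il2rb was lower (1.66 to 3.00 and 1.16 to 1.45 CPM, log2 fold change -0.85, adjusted p = 0.0133, correlation with the placenta list 0.61). Complement C2 was lower in its list of 14 (-0.66, adjusted p = 0.0494) and kept its call only without sham male 1 or PDX male 2 (otherwise up to 0.117). C2 overlaps Gm20547 on the same strand, so reads may be divided between them. In the lipid mediator pathway of 16 genes, Cmklr1, a receptor for chemerin and resolvin E1, was lower (3.33 to 6.51 and 1.68 to 3.81 CPM, -0.78, adjusted p = 0.0326), and was not called without sham male 1 or 2, sham female 2, PDX male 2 or 3 or PDX female 2 (adjusted p up to 0.0944). Of 10 iron handling genes, the iron exporter gene Slc40a1 (-0.61, adjusted p = 0.0124) and transferrin (Trf, 131 to 153 and 85.8 to 127 CPM, -0.47, adjusted p = 0.0192) were lower, and Trf was not called without PDX male 3 (adjusted p = 0.0507). None of 13 interferon response, 11 antigen presentation, 15 cytokine and chemokine, 8 B-cell precursor, 9 red blood cell and 5 adipocyte genes was called. Of 17 proliferation genes, the nucleotide synthesis genes Rrm2 (-0.78, adjusted p = 0.0418) and Tyms (-0.57, adjusted p = 0.0451) were lower, and each kept its call only without PDX male 1 (adjusted p otherwise up to 0.097 and 0.107), and Mki67 was not called (-0.45 ± 0.331, adjusted p = 0.546). Skeletal muscle transcripts varied more than 10-fold within each group, at 68 to 928 CPM summed in sham and 36.1 to 883 CPM with fracture plus PDX, and 0 of 19 were called.

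**Figure D4:**
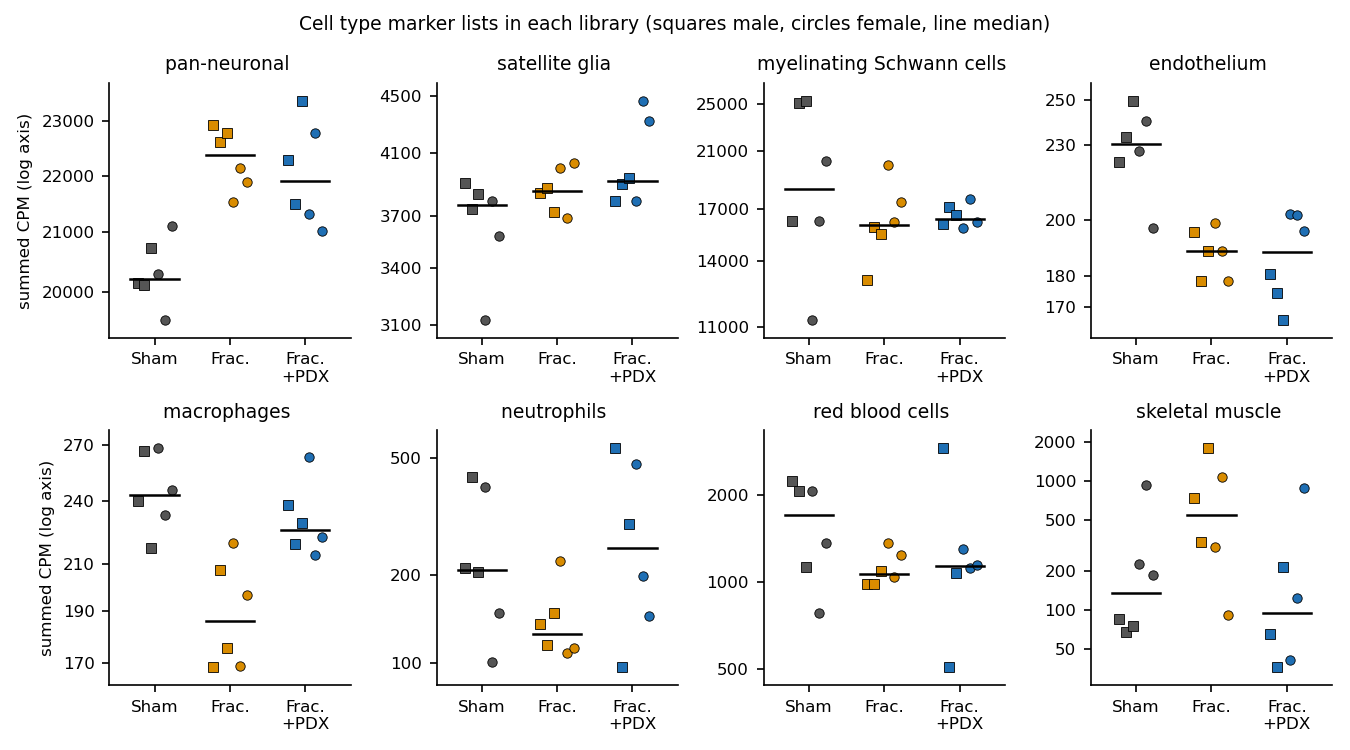
Summed CPM of 8 cell type marker lists in each library on log axes, with squares for males, circles for females and a line at the median. The neuronal sum lies at 19540 to 21114 CPM in sham and 21016 to 23394 CPM in fracture plus PDX, the endothelial sum is lower with fracture plus PDX, and the neutrophil and muscle sums spread widely within groups.

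The vehicle-treated fracture mice, compared with the same 6 sham libraries, had 225 higher (1.09%) and 378 lower genes (1.83%) of 20659 tested. Because both comparisons share the sham libraries, a level that was unusual in sham appears in both. Side by side, the list medians for fracture plus PDX and for fracture were 0.35 and 0.18 for axon injury genes, -0.19 and -0.15 for collagen folding, -0.24 and -0.23 for heat shock, -0.12 and -0.14 for endothelium and -2.35 and -1.76 for placenta. They were 2.02 over 6 tested members and 1.41 over 5 for injury-induced neuropeptides, 0.28 and -0.81 for neutrophils, -0.40 and -1.18 for B-cell precursors, -0.27 and -0.56 for proliferation, 0.042 and -0.37 for the lipid mediator pathway and 0.075 and 1.91 for skeletal muscle. When 1 library was left out, the fracture plus PDX medians ranged from -0.033 to 0.58 for neutrophils, -0.78 to -0.17 for B-cell precursors, -0.039 to 0.066 for the lipid mediator pathway and -0.71 to 0.68 for skeletal muscle, so those of neutrophils, the lipid mediator pathway and skeletal muscle had no fixed sign. The direct test between the fracture groups, which does not use the sham libraries, called 0 of 20562 genes (0%) in edgeR, with 1113 genes at an unadjusted p-value under 0.05, and DESeq2 called 15. For the injury genes its log2 fold changes of fracture plus PDX minus fracture were 0.57 for Atf3 (adjusted p = 0.93), 1.16 for Sprr1a (0.968), 0.55 for Gal (0.983) and 0.02 for Alkal2 (0.997).

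**Figure D5:**
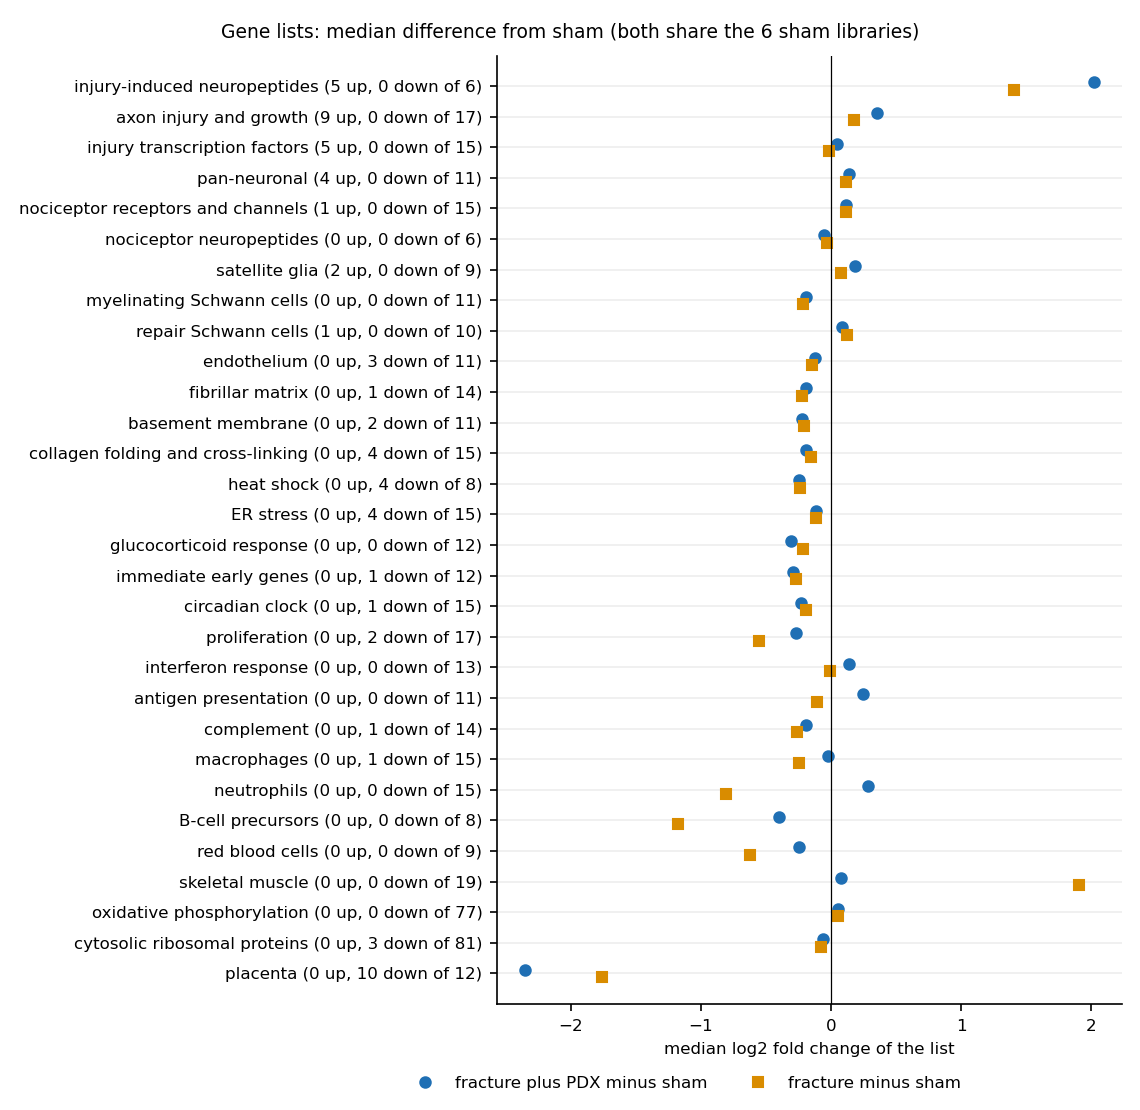
Median log2 fold change against sham of 30 gene lists, with circles for fracture plus PDX and squares for fracture, each over the members tested in that comparison, and the number of members called higher or lower with fracture plus PDX of those tested beside each name. Injury-induced neuropeptides have the highest median (2.02) and placenta genes the lowest (-2.35), and most lists lie within a short distance of 0.

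The log2 fold changes of the injury genes were above 0 in both sexes. They were 1.76 in males and 2.67 in females for Atf3, 3.74 and 6.23 for Sprr1a, 1.24 and 2.69 for Gal and 1.41 and 1.67 for Alkal2, with 3 libraries per sex and group. For lower genes the values were -0.65 and -0.59 for mt-Rnr1, -0.50 and -0.33 for Serpinh1 and -0.76 and -0.66 for Fstl3. The interaction of sex and group was called for 1 gene of those tested, and for none of the genes named above.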

How the data were processed

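Total RNA of L3–L5 DRG was made into poly(A)-selected, strand-specific libraries and sequenced on an Illumina NovaSeq system. Per the labels, the authors used cutadapt 1.10, FastQC, HISAT2 and StringTie with the mouse build mm10, and the program that counted reads is not given in the sources used here. The authors deposited read counts per gene without normalization, and FPKM values of these libraries, scaled by transcript length and mapped fragments. Columns of sham libraries carry the prefix Con in the deposited table.

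The main test was edgeR 4.0.16 in R 4.3.3 (filterByExpr with a minimum count of 10 and a minimum total of 15, TMM, robust glmQLFit, sex and group in the model, the 12 libraries compared). Genes with a Benjamini-Hochberg adjusted p-value below 0.05, adjusted across every gene tested, were called. Levels are CPM after TMM over all 18 libraries. Single genes were also compared with two-sided exact permutation tests of log2 CPM (prior count 2). Alternatives used DESeq2 1.42.0, limma 3.58.1 on the deposited FPKM as log2(FPKM + 1) and log2(FPKM + 0.1), other scalings and filters, each sex alone and leaving out each library.

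The gene lists and the comparison were chosen with earlier results of these data known. Genes named are the 10 with the smallest p-values and the 5 with the largest fold changes, in each direction, among called genes with a mean of at least 1 CPM, a panel of 19 genes, and up to 4 members of each of 45 lists with the smallest p-values. Nts, Stat3 and Jun were named after their values were seen. One gene that this rule names is not reported here. Promoter windows are from RefSeq. Totals were 63235040 to 82824942 counts per library, and a count of 3 or fewer was taken as the floor of detection. The labels do not describe mice of different groups as paired, and p-values weigh the group difference against the spread between these libraries.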

Additional observations from a re-analysis of the deposited data

Results flagged for a closer look

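Among the 107 genes whose values are given, each with 6 sham and 6 fracture plus PDX libraries, 14 of 214 groups held 1 library far from the other 5 (gap to the nearest library, relative to the range, above Dixon's 95% critical value). Chance gives such a gap in about 1 of 20 groups. Sham female 3, which also had the lowest summed placenta level of the sham libraries, was the low library for Nup62cl (3.5 CPM), Tfap2c (2.92 CPM), Gm49394 (0 CPM), Nos2 (0.787 CPM), Serpinb9d (0.534 CPM) and Ncam1 (102 CPM). Sham male 1 was the high library for Uchl1 (2070 CPM), and sham female 1 was the low one for Kcnj10 (79.8 CPM). Among fracture plus PDX libraries, male 3 was low for Trpv1 (96.8 CPM) and Hspa1b (18.3 CPM) and high for Serpina3n (250 CPM), female 1 was low for Gm5155 (0.135 CPM) and Cacna1i (7.56 CPM), and female 3 was low for Rpl34 (6.85 CPM).

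The difference from sham differed between the sexes for 1 gene, Xntrpc on chromosome 7, which overlaps Xndc1 and Trpc2 on the same strand, so that their reads cannot be told apart. The 3 fracture plus PDX males had 0 CPM each and the 3 sham males 3.54 to 5.18 CPM, while the females had 3.11 to 6.98 CPM in sham and 3.43 to 7.04 CPM with fracture plus PDX. The male minus female difference of the log2 fold changes was -11.6 (adjusted p = 0.00603 in edgeR's interaction test). With all 3 libraries at 0, this fitted value depends on the prior count.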

How the results depend on the processing

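Higher and lower calls numbered 447 and 478. They were 803 and 817 with DESeq2, 213 and 273 with a replicate block, 42 and 108 in males alone, 27 and 10 in females alone, 48 and 250 with a fold of more than 1.5 required as well, and 0 and 0 with the placenta list as a covariate, which was added after seeing the data. Higher calls were 232 with limma on log2(FPKM + 1) and 243 on log2(FPKM + 0.1). Leaving out 1 library gave 217 to 494 higher and 281 to 514 lower calls. Scaling by the upper quartile, leaving out the filter or the sex covariate, requiring 10 counts in each library and fitting all 18 libraries together kept both counts within 1.5 times. The block paired mice of the same sex and number. The deviations of such mice correlated between -0.0745 and 0.0789, and not every mouse correlated best with its own number, so they share only a number. Between fracture and sham, 225 genes were higher and 378 lower, and the calls of both directions together were 1511 with DESeq2, 118 with the block and 213 to 710 without 1 library. These leave-one-out fits were added after seeing the data, as were those between fracture plus PDX and fracture (0 to 1 calls, and 15 with DESeq2). DESeq2 called the sex interaction for 58 genes, edgeR for 1.

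Of 90 called genes named in the text, 62 were called without each library in turn and 28 were not. DESeq2 called all 90, while 30 calls were lost with the block, 15 with limma on log2(FPKM + 1), 11 on log2(FPKM + 0.1), 13 without the filter, 10 without the sex covariate, 1 to 3 under each of the other scaling, filter and 18-library settings, 68 in males alone, 74 in females alone and all 90 with the placenta covariate. With 10 counts required in each library, 6 of the 90 were not tested. None of these 90 genes changed sign except, with the placenta covariate, Gm5155 (0.59) and Nos2 (0.0504). Of the genes named in the text but not called, the covariate turned Jun (-0.0276), Csf1 (-0.0022), Calca (0.0808), Tac1 (0.0113), Fpr2 (-0.22), Itgam (-0.32), C3 (-0.41), S100a8 (-0.41), S100a9 (-0.59) and Fkbp5 (0.0417). Tac1 (0.0399) and C3 (-0.11) turned in males alone, Scn10a (-0.0384) in females alone and Itgam with limma (-0.000779 and -0.0017). Leaving out 1 library gave ranges that include 0 for C3 (-0.0461 to 0.25), Fpr2 (-0.0192 to 0.44), Itgam (-0.16 to 0.23), S100a8 (-0.0236 to 0.58), S100a9 (-0.17 to 0.46) and Trpv1 (-0.0524 to 0.0804). The cause of these changes was not tested. With 6 mice per group, differences within the spread between mice could not be called.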

Other observations

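Lists not described above held few calls. Of 18 potassium channel genes, Kcnj10 was the 1 called (median log2 fold change 0.037), and 0 of 19 cholesterol synthesis genes were called (median -0.027). Fracture plus PDX libraries had 25568 to 26237 genes with at least 1 count and sham libraries 26035 to 26738, at total counts that overlapped.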
